A study of Tribolium castaneum with 2 samples.

Results

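The 9 autosomes of the red flour beetle *Tribolium castaneum* are linkage groups LG2 to LG10 of its genome assembly, and together they carried 16379069 of the 19983652 positions listed in either replicate (81.96%). They were chosen by sequence name alone, from the linkage group that opens the name of each assembled sequence. Of the 2313 sequences with a listed position, 163 belonged to an autosome. The data are whole genome bisulfite sequencing (WGBS) of eggs from the Georgia 2 (GA-2) line, the line whose genome was assembled. The eggs were untreated, pooled in large numbers and between 1 and 2 days old, and the pools make up replicates 1 and 2 of a single condition without a comparison group. A value is therefore an average over many embryos and over all their cell types, and the SDs below are over 2 pools. For each listed position the tables give the number of unconverted and of converted reads, but neither strand nor sequence context.

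In many animals DNA methyltransferases add a methyl group to cytosines, mostly where a guanine follows, and Dnmt1 is the enzyme that copies such marks onto the new strand after replication. Insects differ widely in how much of this methylation they carry, and in those that have it the marks are often concentrated in gene bodies. Bisulfite turns unmethylated cytosine into uracil, which is read as T, while methylated cytosine is still read as C. A read with C at a listed position is called unconverted, whether a methyl group, incomplete conversion or a sequencing error left it so.

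Replicate 1 had 11864334 listed autosomal positions with 26744035 reads, and replicate 2 had 13496041 positions with 35867814 reads. Reads are summed over listed positions here and below, so a sequencing read counts at each listed position it covers. The autosomal sums were 62.9% and 64.4% of those over all listed positions. Both replicates listed 8981306 of the positions. The total length of the autosomes, taken from the last listed position of each sequence, was 130.4 Mb. The longest autosome was LG3 with 28.6 Mb in 35 sequences and the shortest LG10 with 7.49 Mb in 14 sequences. LG4 was the least fragmented, with 7 sequences over 12.1 Mb. The others were LG2 (14.5 Mb), LG5 (14.3 Mb), LG6 (8.98 Mb), LG7 (15.4 Mb), LG8 (13.5 Mb) and LG9 (15.5 Mb).

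Listed positions were not spread evenly over the autosomes, and the order of the autosomes was the same in both replicates. A position is listed only where at least 1 read covered it, so density depends on the cytosines in the sequence and on the reads that mapped there. Over all 9 autosomes it was 91.0 positions per kb in replicate 1 and 103.5 in replicate 2, a mean of 97.2 ± 8.85 (SD, n = 2). LG4 was the densest, with 102.6 and 115.5 positions per kb in replicates 1 and 2. LG5 followed with 100.2 and 113.3, and LG7 with 99.3 and 112.8. LG2 had 98.1 and 111.7. These 4 autosomes lay above the mean of all 9 in each replicate.

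LG9, at 90.1 and 102.1 positions per kb, and LG8, at 89.5 and 101.1, were close to the mean. The lowest densities were those of LG6, LG3 and LG10. LG6 had 82.6 and 92.9 positions per kb, LG3 had 80.1 and 92.8, and LG10 had 79.4 and 90.9. LG3, the longest autosome, and LG10, the shortest, were thus both sparse. The SD between replicates of a single autosome was 7.31 (LG6) to 9.68 (LG2) positions per kb, and the SD over the 9 autosomes within a replicate was 9.11 and 9.93. Neighbours in this order therefore differed by less than the replicates did. The replicates differed almost uniformly, however: relative to all 9 autosomes, density ran from 0.873 (LG10) to 1.13 (LG4) in replicate 1 and from 0.878 to 1.12 for the same autosomes in replicate 2. Pearson's r between the replicates was 0.997 and Spearman's rho was 1 (n = 9 autosomes, which share their libraries and sequence composition).

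The autosomes also differed in how much of them held no listed position at all. Among bins of 1 kb, 3.49% of the autosomal bins held no listed position in either replicate, from 2.57% on LG5 to 5.57% on LG6. Counted only over the other bins, LG4 was still the densest with 106.3 and 119.7 positions per kb, and LG10 still the sparsest with 82.0 and 93.8. Of the positions listed in either replicate, 25.3% (LG3) to 29.5% (LG4) directly followed another listed position, and the share was 27.9% over all autosomes. The densest autosome was thus also the one where listed positions most often touched. The X chromosome, the remaining linkage group, had 92.2 and 106.7 positions per kb and so lay within the autosomal range.

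Depth, the mean number of reads per listed position, was far more even than density. Positions without a read are not listed, so this mean cannot fall below 1. Reads per kb, which also depend on density, varied more. They ran from 177.7 (LG3) to 236.8 (LG4) in replicate 1 and from 244.8 (LG10) to 313.1 (LG4) in replicate 2. Over the 9 autosomes depth was 2.25 reads in replicate 1 and 2.66 in replicate 2, with a mean over replicates of 2.46 ± 0.285 (SD, n = 2). LG8 had the highest depth in replicate 1, with 2.32 reads, and LG4 in replicate 2, with 2.71 reads. LG5 had the lowest depth in both, with 2.21 and 2.61 reads. Relative to all 9 autosomes, depth ran from 0.980 to 1.03 in replicate 1 and from 0.981 to 1.02 in replicate 2, and each autosome differed more between replicates than the autosomes did from one another. The SD over autosomes was 0.0445 reads in replicate 1 and 0.0401 in replicate 2.

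The other autosomes fell between these values. LG2 had 2.23 and 2.64 reads per listed position, LG3 had 2.22 and 2.65, and LG9 had 2.22 and 2.61. LG6 had 2.29 and 2.64 reads, LG7 had 2.27 and 2.69, LG4 had 2.31 in replicate 1 and LG8 had 2.71 in replicate 2. LG10, sparse in listed positions, was among the deeper autosomes with 2.30 and 2.69 reads. Without positions of over 100 reads, however, its mean over replicates was 2.43 reads, the same as for all 9 autosomes. The replicates ranked the autosomes similarly but not identically (r = 0.849, rho = 0.85, n = 9). The X had 1.98 and 2.31 reads per listed position, 0.878 and 0.869 times the autosomal level, which was below every autosome in both replicates.

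**Figure D1:**
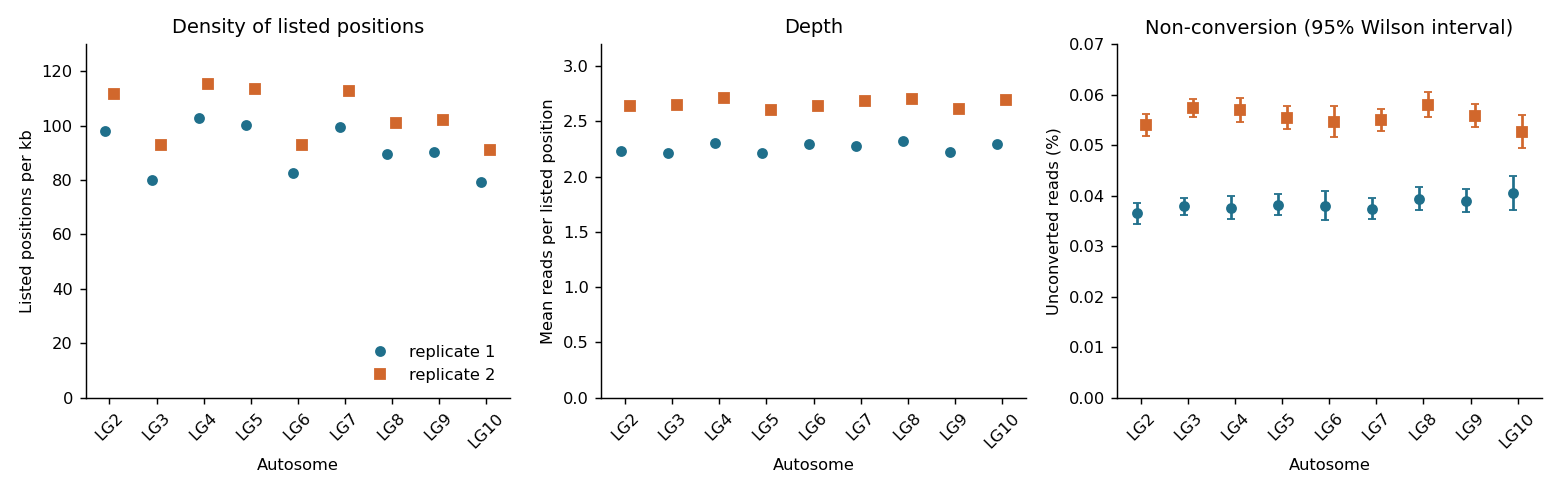
Listed positions per kb, mean reads per listed position and percent unconverted reads (vertical axes) for each of the 9 autosomes, with circles for replicate 1 and squares for replicate 2. Density varied from 79.4 to 102.6 positions per kb in replicate 1 and in the same order in replicate 2, depth stayed between 2.21 and 2.71 reads, and non-conversion, shown with 95% Wilson intervals, was higher in replicate 2 on all 9 autosomes.

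The typical position was thinly covered on every autosome, with a median of 2 reads in both libraries. Positions with 1 read made up 43.8% (LG4) to 46.3% (LG3) of the listed positions in replicate 1 and 38.2% to 40.7% in replicate 2, there from LG4 to LG10. At least 5 reads covered 8.0% (LG3) to 9.13% (LG4) and 14.1% (LG6) to 15.8% (LG4). The autosomes resembled one another in these shares, but less so in the deep tail. At least 10 reads covered 0.226% of the positions of LG5 and 0.771% of those of LG6 in replicate 1. In replicate 2 LG5 was again lowest with 0.485%, while LG10 was highest with 1.09%.

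Positions with over 100 reads were few, 915 in replicate 1 and 1126 in replicate 2, and held 0.929% and 0.895% of the autosomal reads. They were unevenly placed. LG8 had 2.51% and 2.40% of its reads there and LG10 had 2.44% and 2.46%, whereas LG5 had 0.192% and 0.215%. The deepest autosomal position was on LG8, with 2946 reads in replicate 1 and 3728 in replicate 2. Without positions of over 100 reads the mean autosomal depth was 2.43 reads, so the level of the chromosomes did not rest on them.

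Which positions were listed, and how deep each was, agreed less between replicates than the means of the autosomes. Of the positions of replicate 1, 74.7% (LG10) to 76.5% (LG4) were also listed in replicate 2. Of those of replicate 2, 65.0% (LG3) to 68.0% (LG4) were also listed in replicate 1. The share was thus highest where positions were densest. At positions listed in both, Spearman's rho of the number of reads was between 0.330 (LG5) and 0.372 (LG10). These correlations are over positions that share fragments, and are given as a description.

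Each autosome is made up of several assembled sequences, here called by their names in the assembly. At least 10000 reads in both replicates fell on 160 of the 163, and 39 were at least 1 Mb long. The 3 with fewer reads were LG10_WGA169_2, LG3_WGA64_2 and LG5_WGA76_2. The density of the 160 ranged from 51.7 positions per kb on LG9_WGA150_2 to 164.7 on LG7_WGA108_2 in replicate 1 and from 60.4 to 175.4 on the same sequences in replicate 2. The medians were 88.1 and 101.3. Sequences of one autosome could thus differ more in density than the autosomes did. The replicates agreed closely on this (r = 0.995, rho = 0.993, n = 160 sequences).

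The depth of most sequences lay close to the autosomal mean. Divided by the depth of all 9 autosomes in the same replicate, it was between 0.9 and 1.1 in both replicates for 135 of the 160. Only 5 lay above 1.2 in both, and 4 of these above 1.5 in both. The extremes recurred, with r = 0.991 and rho = 0.884 over the 160 sequences. The 5 deepest were on LG6, LG7, LG8 and LG10 and none was longer than 286.9 kb.

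LG7_WGA108_2 (98.0 kb) was the deepest sequence, with 5.90 and 6.89 reads per listed position, or 2.62 and 2.59 times the autosomal mean. It was also the sequence with the highest density. This depth was spread over many positions, as its median was 3 and 4 reads, its deepest position had 65 and 81 reads, and none passed 100. LG8_WGA135_2 (67.4 kb) had 4.46 and 5.30 reads, 1.98 and 2.00 times the mean. LG10_WGA166_2 (108.0 kb) had 3.62 and 4.29 reads, and here single positions weighed more. Its deepest position had 1157 and 1393 reads, and the 17 and 18 positions with over 100 reads held 15.9% and 14.6% of its reads.

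Both other deep sequences belonged to LG6. LG6_WGA107_2 (66.3 kb) had 3.63 and 4.01 reads per listed position and LG6_WGA106_2 (286.9 kb) had 3.31 and 3.78. On the latter, 15.3% of the bins of 1 kb held no listed position. The 5 shallowest were LG9_WGA152_2 (2.00 and 2.28 reads), LG9_WGA143_2 (2.02 and 2.33), LG9_WGA145_2 (2.03 and 2.36), LG10_WGA168_2 (2.01 and 2.39) and LG9_WGA155_2 (2.00 and 2.41). The lowest relative depth among them was 0.859, so that departures from the mean were larger upwards than downwards. Downward departures are limited, because every listed position has a read.

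**Figure D2:**
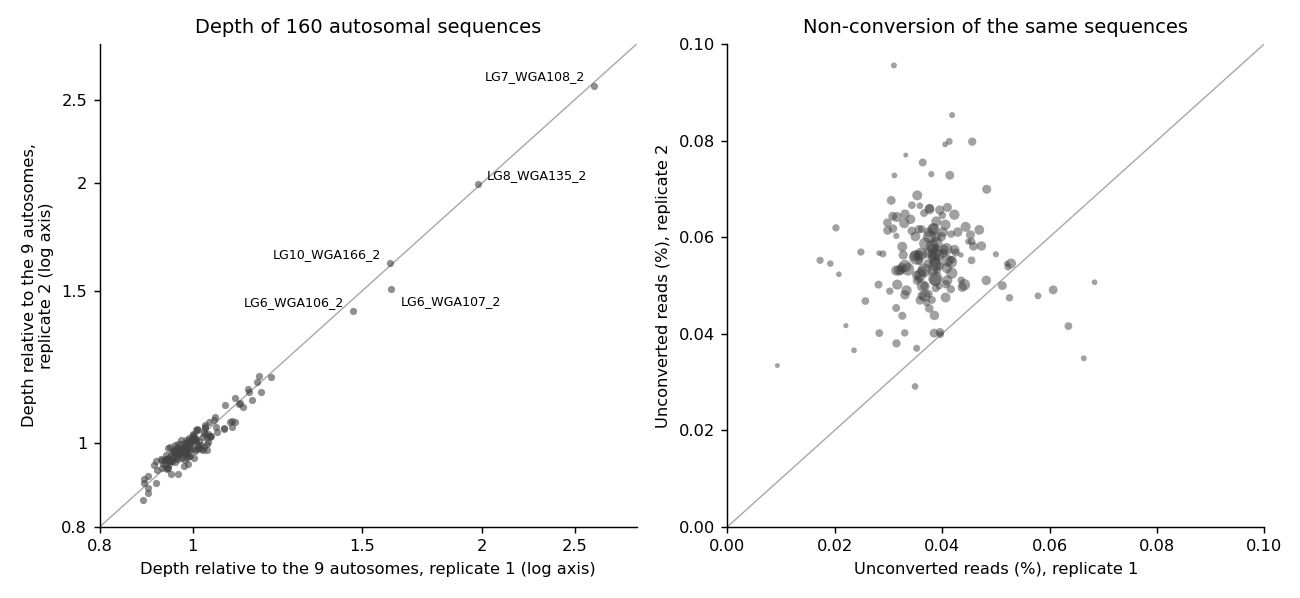
Left, depth of the 160 autosomal sequences divided by the depth of all 9 autosomes, replicate 1 against replicate 2 on log axes, with the 5 sequences above 1.2 in both named. Right, percent unconverted reads of the same sequences, where the area of a point grows with its number of reads and the line marks equal values. Relative depth recurred between replicates (r = 0.991), and 152 of the 160 sequences lie above the line. Non-conversion did not recur (r = 0.0073), but it rested on a median of 44 and 92.5 unconverted reads per sequence.

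The longest sequence of each autosome stayed near the mean in depth. LG7_WGA122_2 (3.75 Mb) had 2.19 and 2.60 reads per listed position, LG4_WGA72_2 (3.46 Mb) had 2.22 and 2.59, and LG2_WGA22_2 (3.26 Mb) had 2.16 and 2.59. LG3_WGA42_2 (2.68 Mb) had 2.19 and 2.62 reads, LG5_WGA91_2 (2.33 Mb) 2.21 and 2.59, LG9_WGA160_2 (2.01 Mb) 2.30 and 2.64, and LG6_WGA104_2 (1.35 Mb) 2.12 and 2.49. LG8_WGA128_2 (2.66 Mb) stood somewhat higher, with 2.52 and 2.95 reads. In this sequence 123 and 143 positions with over 100 reads held 8.71% and 7.85% of the reads. LG10_WGA164_2 (1.22 Mb), with 2.26 and 2.72 reads, was the sparsest of the 9, at 63.5 and 75.7 positions per kb.

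Complete windows of 100 kb, of which the autosomes held 1223, showed where within the longer sequences departures lay. Sequences shorter than 100 kb held no such window, among them the deep LG7_WGA108_2, LG8_WGA135_2 and LG6_WGA107_2. The remainder of longer sequences was left out too. The 5th to 95th percentile of density was 63.4 to 120.1 positions per kb in replicate 1 and 74.8 to 133.3 in replicate 2. The windows named here were chosen after their values were seen. The emptiest was 1100001 to 1200000 of LG3_WGA63_2 with 9.98 and 11.1 positions per kb, although those positions had an ordinary depth of 2.10 and 2.49 reads. The densest was 1700001 to 1800000 of LG4_WGA71_2 with 150.7 and 167.2 positions per kb, and it was also deep, with 4.68 and 5.45 reads. Density and depth thus departed from the rest separately in the first of these windows and together in the second.

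In 16 windows depth exceeded 1.5 times the median window in both replicates, compared with 18 in replicate 1 and 17 in replicate 2. They were on LG3 (5), LG4 (4), LG8 (3), LG10 (2), LG7 (1) and LG9 (1), while LG2, LG5 and LG6 had none. The deep LG6_WGA107_2, LG7_WGA108_2 and LG8_WGA135_2 were too short to be among them. The deepest was 1 to 100000 of LG8_WGA128_2, with 10.5 and 11.6 reads per listed position, 4.80 and 4.46 times the median. The first 100 kb of LG3_WGA53_2 reached 6.67 and 7.98 reads at only 22.8 and 24.0 positions per kb. Window depth agreed between replicates with r = 0.983 and rho = 0.751 (n = 1223 windows).

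Non-conversion, the unconverted reads divided by all reads, was low on every autosome, and no autosome differed from the other linkage groups in both replicates. All 9 together had 10173 unconverted reads in replicate 1, or 0.0380% (95% Wilson interval 0.0373% to 0.0388%). In replicate 2 there were 20017 unconverted reads, or 0.0558% (0.0550% to 0.0566%), and the mean was 0.0469% ± 0.0126 (SD, n = 2). Intervals cover counting error only, because cytosines that lie close together often come from 1 molecule. Replicate 2 was higher on all 9 autosomes, and 1.47 times as high over all of them.

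In replicate 1 the lowest rate was that of LG2, with 1156 unconverted reads or 0.0365% (0.0344% to 0.0386%). The highest was that of LG10, with 552 unconverted reads or 0.0404% (0.0372% to 0.0439%). The intervals of even these extremes overlapped. Between them, rates were 0.0373% on LG7, 0.0375% on LG4, 0.0378% on LG3, 0.0379% on LG6, 0.0381% on LG5, 0.0390% on LG9 and 0.0393% on LG8.

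In replicate 2 the order was another one. LG10 was here the lowest, with 964 unconverted reads or 0.0526% (0.0494% to 0.0560%), and LG8 the highest, with 2145 or 0.0580% (0.0556% to 0.0605%). LG2 had 0.0540%, LG6 0.0545%, LG7 0.0549%, LG5 0.0554%, LG9 0.0558%, LG4 0.0569% and LG3 0.0572%. The autosome with the highest rate in one replicate thus had the lowest in the other, and over the 9 autosomes r was -0.091 and rho was 0.1. The ratio of replicate 2 to replicate 1 was 1.30 on LG10 and between 1.43 (LG9) and 1.51 (LG4) on the others. The place of LG10 in replicate 1 depended on neighbouring positions. With unconverted positions within 240 bp counted together it had 0.0357%, between LG2 (0.0353%) and LG7 (0.0359%). In replicate 2 it was again the lowest (0.0439%). Without the unconverted positions in clusters, defined below, LG10 stayed highest in replicate 1 (0.0398%) and lowest in replicate 2 (0.0457%).

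Each linkage group, the X included, was compared with the other 9 by a two-sided Fisher's exact test of its unconverted and converted reads, with Benjamini-Hochberg adjustment over both replicates. In both replicates together 0 of the 9 autosomes passed an adjusted p of 0.05, against a background of 0% of the 10 linkage groups. The smallest adjusted p was 0.460, and no linkage group had an unadjusted p under 0.05 in either replicate. The closest was LG8 in replicate 2, at 1.04 times the other linkage groups (unadjusted p = 0.0572, Fisher's exact test). LG10 was at 1.06 times the others in replicate 1 and 0.940 times in replicate 2. Across the 9 autosomes, a chi-square comparison of their unconverted and converted reads, with 8 degrees of freedom, gave 6.79 in replicate 1 (p = 0.560) and 13.9 in replicate 2 (p = 0.0834). The comparison was repeated over positions with at least 5 reads. There the chi-square statistic was 11.6 in replicate 1 (p = 0.170) and 19.8 in replicate 2 (p = 0.0111). In the same setting LG3 passed Fisher's exact test in replicate 2, at 1.09 times the other linkage groups (adjusted p = 0.0273), which is 10% of the 10 linkage groups, but none passed in replicate 1. These tests treat reads as independent. Over all positions, with unconverted positions within 240 bp (the fragment length) counted together, the chi-square p of replicate 2 was 0.553 in place of 0.0834, and this was not computed for positions with at least 5 reads.

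The X lay within the autosomal range of non-conversion, with 0.0393% (0.0360% to 0.0428%) in replicate 1 and 0.0556% (0.0522% to 0.0591%) in replicate 2.

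Among sequences, non-conversion varied more than among whole autosomes, and it rested on fewer unconverted reads, with a median of 44 in replicate 1 and 92.5 in replicate 2. The rates of the 160 sequences ranged from 0.00931% to 0.0684% in replicate 1 and from 0.0291% to 0.0956% in replicate 2. The rate was higher in replicate 2 for 152 of them. High and low sequences did not recur between the replicates (r = 0.0073, rho = 0.0434, n = 160). Over the 39 sequences of at least 1 Mb r was 0.199 and rho 0.255, and over the 1223 windows r was -0.048. The windows had a median of 7 and 15 unconverted reads. At the counts of sequences and windows, a low r cannot show whether small differences recurred.

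A two-sided exact binomial test compared each sequence with the overall rate of its replicate, over all 568 sequences of the assembly with enough reads. In both replicates together 0 of the 160 autosomal sequences passed, against a background of 0%, and none passed in replicate 1 or in replicate 2 alone, where the background was 0% and 0.704% of all tested sequences. The smallest adjusted p of an autosomal sequence was 0.135 and 0.0919. By unadjusted p under 0.05 it was 9 sequences in replicate 1 (5.63%) and 21 in replicate 2 (13.1%), beside 5.81% and 11.4% of all tested sequences. A single sequence, LG10_WGA165_2, was under 0.05 unadjusted in both, and in opposite directions. It had 45 unconverted of 70839 reads in replicate 1, 1.65 times the overall rate, and 40 of 96221 in replicate 2, 0.731 times the rate.

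None of the 5 deepest sequences passed this test in either replicate. LG7_WGA108_2 had 0.0315% (0.0221% to 0.0450%) in replicate 1 and 0.0380% (0.0284% to 0.0508%) in replicate 2. The second of these lies below the autosomal rate of that replicate, but its adjusted p was above the threshold. LG10_WGA166_2 had 0.0413% (0.0261% to 0.0653%) and 0.0798% (0.0598% to 0.106%). Its interval in replicate 2 lies above the autosomal rate of that replicate, again with an adjusted p over the threshold (0.319, exact binomial test). LG6_WGA107_2 had 7 and 21 unconverted reads, and its intervals were correspondingly wide, 0.0151% to 0.0642% and 0.0476% to 0.111%. On the longest sequence, LG7_WGA122_2, 301 of 855226 reads were unconverted in replicate 1 (0.0352%) and 644 of 1154420 in replicate 2 (0.0558%). LG10_WGA168_2 had the lowest rate of replicate 1, but this rests on 1 unconverted read, with 5 in replicate 2.

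Non-conversion differed with the number of reads at a position, and was lowest at single reads in both replicates. It was 0.0350% (0.0334% to 0.0366%) at autosomal positions with 1 read in replicate 1 and 0.0464% (0.0446% to 0.0483%) in replicate 2. At positions with 5 to 9 reads it was 0.0392% (0.0376% to 0.0409%) and 0.0595% (0.0581% to 0.0609%). The intervals of these depth classes do not overlap in either replicate, but they treat neighbouring cytosines of a molecule as independent. The depth classes were not compared with neighbouring positions counted together. With 2 reads the rates were 0.0370% and 0.0525%, with 3 to 4 reads 0.0387% and 0.0575%, and with 10 to 100 reads 0.0443% and 0.0607%. Over 100 reads the replicates met, at 0.0511% (0.0430% to 0.0608%) and 0.0511% (0.0438% to 0.0595%). In this class alone replicate 2 was not above replicate 1. A single position, LG9_WGA161_2 at 472521, gave 22 of the 127 unconverted reads of replicate 1 there and 2 of the 164 of replicate 2. The equal rates therefore rest in part on that position, and were not recomputed without it.

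**Figure D3:**
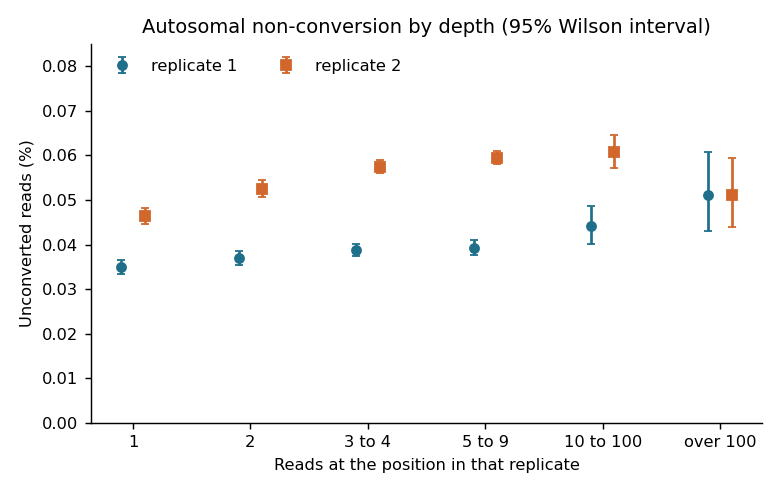
Percent unconverted reads at autosomal positions (vertical axis) by the number of reads at the position in the same replicate (horizontal axis), with 95% Wilson intervals, circles for replicate 1 and squares for replicate 2. The rate was lowest at positions with 1 read, 0.0350% and 0.0464%. The replicates coincided at 0.0511% at positions with over 100 reads, where 1 position gave 22 of the 127 unconverted reads of replicate 1.

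Unconverted reads were scattered over 10076 autosomal positions in replicate 1 and 19927 in replicate 2. Exactly 1 read was unconverted at 99.6% and 99.7% of them, and their median depth was 3 and 4 reads. Per autosome that share was between 98.9% (LG10) and 100% (LG6) in replicate 1. Only 40 positions of replicate 1 and 61 of replicate 2 had at least 2 unconverted reads. The scatter was not independent of distance, however, and in this the replicates differed strongly.

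Clusters were defined as at least 3 unconverted positions in which neighbours were at most 50 bp apart. Replicate 1 had 16 autosomal clusters and replicate 2 had 554, which is 34.6 times as many, or 0.598 and 15.4 per 1000000 reads. Clusters held 0.784% of the unconverted positions of replicate 1 and 11.7% of those of replicate 2. In replicate 2 every autosome had them, with 59 on LG2, 116 on LG3, 58 on LG4, 62 on LG5, 30 on LG6, 66 on LG7, 63 on LG8, 69 on LG9 and 31 on LG10. Scaled to reads this was an even spread, from 13.6 per 1000000 on LG6 to 17.0 on LG8. In replicate 1 there were 5 on LG3, 4 on LG8, 2 each on LG4 and LG6, 1 each on LG5, LG7 and LG10, and none on LG2 and LG9.

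**Figure D4:**
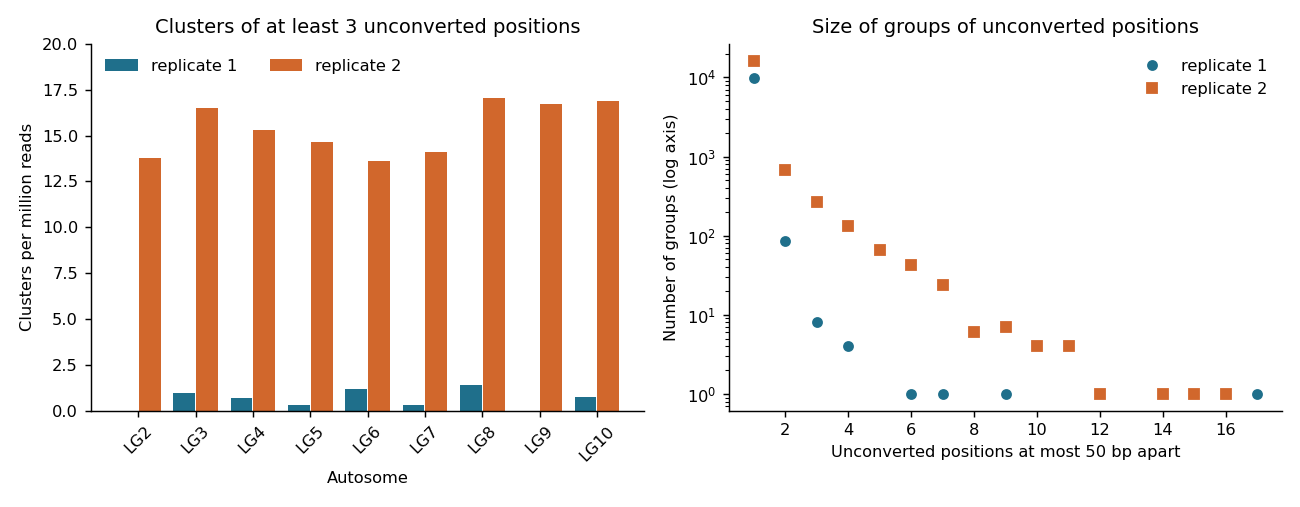
Left, clusters of at least 3 unconverted positions per 1000000 reads on each autosome in replicates 1 and 2. Right, number of groups of unconverted positions at most 50 bp apart (log axis) by the number of positions in the group. Replicate 2 had 13.6 to 17.0 clusters per 1000000 reads on all 9 autosomes against 0.598 over the autosomes in replicate 1, and most groups were single positions in both.

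The clusters were short and mostly 1 read deep in unconverted reads. Their median length was 42.5 bp in replicate 1 and 31 bp in replicate 2, and the longest was 71 bp and 138 bp, less than a fragment of 240 bp. Every position of the cluster had a single unconverted read in 11 of the 16 clusters of replicate 1 and in 540 of the 554 of replicate 2 (97.5%). Of the positions listed within the clusters 45.4% and 57.6% were unconverted. In 158 clusters of replicate 2, and in none of replicate 1, all listed positions between the first and the last were unconverted. Clusters with a position of over 100 reads numbered 7 in replicate 1 and 11 in replicate 2.

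The clusters with most unconverted positions were not seen among the few reads of the other replicate there. In replicate 1 the largest was on LG6_WGA104_2 from 425580 to 425650 (assembly version 3.0), where 17 of 20 listed positions had an unconverted read. In replicate 2 none was unconverted there, with 56 reads summed over 19 positions and at most 6 reads at a position. The next was on LG10_WGA165_2 from 290985 to 291048, with 9 of 23 positions, and replicate 2 listed no position there. The third was on LG4_WGA74_2 from 345746 to 345803, with 7 of 12 positions in replicate 1 and none unconverted in replicate 2, with 26 reads summed over 12 positions and at most 5 at a position. LG10_WGA165_2 is the sequence whose rate lay above the overall rate in replicate 1 and below it in replicate 2, and this cluster held 9 of its 45 unconverted reads.

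In replicate 2 the largest cluster was on LG8_WGA137_2 from 88608 to 88651, where 16 of 19 listed positions had an unconverted read. None was unconverted there in replicate 1, with 55 reads summed over 18 positions. On LG7_WGA116_2 from 55624 to 55734 it was 15 of 39 positions, against 0 of 103 reads in replicate 1, and on LG3_WGA44_2 from 1873452 to 1873577 it was 14 of 29, against 0 of 74 reads. No position in these 3 spans had more than 7 reads in replicate 1. The summed reads count the same molecules at many cytosines, so at these 6 places the other replicate was too shallow to say whether such molecules were absent. Each unconverted position in all 6 clusters had exactly 1 unconverted read.

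Clusters of both replicates lay within 240 bp of each other in 8 pairs, on LG3 (4 pairs), LG4, LG7 and LG8 (2 pairs). The 4 pairs on LG3 came from 2 clusters of replicate 1, each paired with 2 clusters of replicate 2. In 7 of the 8 pairs the deepest position had at least 688 reads. The pair on LG4_WGA72_2, from 3431793 to 3431847 in both replicates, was the other one, with 6 and 3 unconverted positions and at most 27 and 23 reads.

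Leaving out the unconverted positions that formed clusters narrowed the difference between replicates but did not remove it. The narrowing was given by the construction, since replicate 2 had far more clusters and converted positions inside clusters were kept. By this measure non-conversion was 0.0377% in replicate 1 and 0.0493% in replicate 2, a ratio of 1.31 in place of 1.47. With unconverted positions within 240 bp counted together over unchanged reads, the values were 0.0363% and 0.0469%, a ratio of 1.29. This measure, too, falls more where more unconverted positions are neighbours. Replicate 2 stayed higher on all 9 autosomes by both measures, with LG10 lowest in ratio (1.15 and 1.23) and the others at 1.25 to 1.37 and 1.27 to 1.32. What produced the clusters was not tested.

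On the autosomes few unconverted positions coincided. In all, 80 autosomal positions had an unconverted read in both replicates, 0.794% of the unconverted positions of replicate 1 and 0.401% of those of replicate 2. Over the whole series it was 1038 positions, 6.63% and 3.44%, most of them on unplaced sequences (18.8% and 10.4% of the unconverted positions there). These shares are at unlike depths, as unplaced sequences had 7.35 and 8.18 reads per listed position against 2.25 and 2.66 on the autosomes. Of the 80 autosomal positions LG3 had 22, LG8 16, LG4 10, LG2 8, LG5, LG9 and LG10 6 each, LG7 5 and LG6 1. They were on 48 sequences, with at most 6 on one, LG3_WGA51_2. Reads at these positions, summed over the replicates, ranged from 2 to 6119 with a median of 30, and 30 positions had over 100. On LG8 the median was 731.5 reads and 9 of 16 positions had over 100, while on LG3 it was 14.5 reads. In 60 of the 80 a single read was unconverted in each replicate, and 9 had at least 2 in each.

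Single positions were tested against the overall rate of their replicate with a one-sided exact binomial test wherever they had at least 5 reads, over the whole assembly. In both replicates 428495 autosomal positions were tested and 3 passed, beside 0.000809% of the 741824 positions tested over the assembly. On LG10_WGA174_2 at 406188, 14 of 65 reads were unconverted in replicate 1 and 9 of 55 in replicate 2. Without this position the rate of the sequence changed from 0.0607% to 0.0492% and from 0.0491% to 0.0435%, and that of LG10 in replicate 1 from 0.0404% to 0.0394%. On LG3_WGA35_2 at 214892 it was 13 of 74 and 8 of 73 reads, and the rate of that sequence without it was 0.0384% in place of 0.0483% and 0.0654% in place of 0.0699%. On LG8_WGA130_2 at 9790 it was 3 of 34 and 5 of 27 reads, which moved its sequence little, from 0.0314% to 0.0299% and from 0.0531% to 0.0512%. A whole autosome was moved less, and in replicate 2 LG10 had 0.0521% without the first of these positions and 0.0526% with it.

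Replicate 1 alone called 8 of its 1002410 tested autosomal positions and replicate 2 alone called 3 of 2039910, the same 3 that passed in both. Over the whole assembly 0.00112% and 0.000338% of the tested positions were called in these replicates. The 5 called in replicate 1 only were named after their values were seen. On LG9_WGA161_2 at 472521, 22 of 190 reads were unconverted in replicate 1 but 2 of 172 in replicate 2 (adjusted p = 1.64e-41 and 1, exact binomial test). This position gave 22 of the 31 unconverted reads of its window of 100 kb, which had the highest rate of the 1223 windows in replicate 1, 0.150%, and 0.0475% in replicate 2. On LG8_WGA134_2 at 975595 the counts were 4 of 26 and 2 of 38 reads, and on LG7_WGA119_2 at 277815 they were 4 of 56 and 1 of 72. On LG5_WGA91_2 at 2189144 they were 3 of 20 and 0 of 12, and on LG9_WGA161_2 at 339232 they were 3 of 6 and 0 of 1, where replicate 2 was too shallow for the test.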

How the data were processed

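The libraries are bisulfite-treated genomic DNA of GA-2 eggs, with 1 pool for each of replicates 1 and 2. According to the methods and processing notes, the authors trimmed the reads (Trimmomatic 0.32), mapped them with BSMAP to assembly version 3.0, removed duplicates with Picard and derived ratios with the script distributed with BSMAP. The deposited tables hold raw counts of unconverted and converted reads per position, without header, strand or normalization. Which column is which was read from the methods and from its small sum. Duplicate removal and the placing of reads in repeats decide which reads were counted and could not be varied. The methods describe sites containing a CpG, but the list was used as it stands, and its positions may include other contexts.

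Sequences were assigned to autosomes by name, and reads were the sum of both counts. Summed over the listed positions of all sequences, replicate 1 had 42534665 reads and replicate 2 had 55723118. These sums are not numbers of sequenced reads. Length was the last listed position of a sequence. Tests were run on the whole table: two-sided Fisher's exact tests for 10 linkage groups, two-sided exact binomial tests for sequences with at least 10000 reads in both replicates, and one-sided ones for positions with at least 5 reads. All used Benjamini-Hochberg adjustment and a threshold of 0.05, and were tried on simulated reads that were independent and so without clusters. There the position test found 167 of 200 positions with a level of 0.5 in both replicates, but 37 of 200 with a level of 0.2. The sequence test found 17 of 20 sequences changed 2-fold, and smaller changes of sequences were not simulated. Correlations are descriptions. Analyses were run in Python 3.11.15 with pandas 2.3.3, numpy 2.4.6 and scipy 1.17.1, and plots were drawn with matplotlib 3.10.9.

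The autosomes, tests and rules were chosen with earlier results of these data known. Named were sequences called in both replicates (there were none), the longest of each autosome, the 5 deepest and 5 shallowest, positions called in both replicates, and the 3 clusters per replicate with most unconverted positions. Other named items were chosen after their values were seen. Alternatives covered coverage minimum, depth above 100 reads, weighting, length, neighbouring positions and replicates. Leaving out the unconverted positions in clusters and counting only bins with a listed position were added after seeing the data. Genes and sequences at the positions were not analysed here, because the reference used here is of another assembly.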

Additional observations from a re-analysis of the deposited data

How the results depend on the processing

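Averages over the replicates kept their direction and stayed within the spread between replicates under most alternatives. Exceptions were density at positions listed in both replicates (68.9 per kb in place of 97.2) or with at least 5 reads (11.7), and depth at positions listed in both (2.88 reads in place of 2.46), since these settings leave fewer or deeper positions. Leaving out each replicate in turn gave 91.0 to 103.5 positions per kb, 2.25 to 2.66 reads and 0.0380% to 0.0558% non-conversion. Over the other alternatives non-conversion ran from 0.0416% (unconverted positions within 240 bp counted together, over unchanged reads) to 0.0524% (at least 10 reads). It was 0.0435% without the unconverted positions in clusters. For single autosomes, values moved by more than the spread between replicates in 18 of 27 cases at positions listed in both, in 9 of 18 with at least 5 reads, in 2 of 9 with at least 10 reads and in 1 of 27 on sequences of at least 1 Mb. No linkage group was called in both replicates under any alternative (LG3 was in replicate 2 alone with at least 5 reads, adjusted p = 0.0273, Fisher's exact test), and without either replicate the count of linkage groups and of sequences stayed at 0. With unconverted positions within 240 bp counted together, 6 of the 160 autosomal sequences were called above the overall rate in both replicates. No other tested sequence was called above it, so the same 6 make up the 1.06% of all 568 tested (10.4% when lower ones are counted too). The 6 were LG2_WGA24_2, LG3_WGA42_2, LG3_WGA52_2, LG5_WGA83_2, LG5_WGA86_2 and LG7_WGA111_2. By its construction this setting lowered the overall rate more than the autosomal one, to 0.0310% and 0.0396% against 0.0363% and 0.0469%, because unplaced sequences fell to 0.0208% and 0.0242%. The 3 called positions became 1 against a background of 1%, and 3 to 8 with a replicate left out. The 80 shared positions became 49 with at least 5 reads in both, 53 without depths over 100 and 9 with at least 2 unconverted reads in each. Of the 570 clusters 340 were left at 10 bp, and leaving out a replicate gave 16 to 554. At 10 bp replicates 1 and 2 had 8 and 332 clusters, at 240 bp 35 and 629, and without depths over 100 reads 9 and 543. No paired analysis was possible because there is only 1 group. With a median of 2 reads per position, the level of single positions was not detectable for most of the autosomes.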
